A study of Rattus norvegicus with 6 samples.

Results

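The interferon-induced GTPases described here are 8 rat genes of 3 families: the guanylate-binding proteins Gbp2, Gbp4 and Gbp5, the immunity-related GTPases Igtp, Irgm and Ifi47, and the dynamin-like proteins Mx1 and Mx2. Their probes were found in the spot tables of the arrays by gene name, or, where the name column held another identifier, by the gene named in the description. The 8 genes are among 36410 targets, and this gave 9 of the 41012 probes, each printed in 1 spot, with 2 probes for Gbp2 and 1 for every other gene. Of these 9 probes, 5 probes of 4 genes (Gbp2, Gbp4, Irgm and Ifi47) gave a signal well above background on 1 or more arrays.

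Cells switch these genes on when interferons bind their receptors. Interferon gamma, released mainly by T cells and NK cells, acts at short promoter elements called GAS, and type I interferons act mainly at elements called ISRE. Guanylate-binding proteins and some immunity-related GTPases coat the vacuoles in which intracellular pathogens hide and help to break them open. Mx proteins block the replication of RNA viruses. In inflamed nervous tissue their transcripts serve as a readout of interferon exposure.

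RNA came from formalin-fixed, paraffin-embedded spinal cord sections of Lewis rats, 7 to 8 weeks old, and was amplified in 1 round before hybridisation. There were 6 groups with 1 one-colour Agilent array each, and each array carried a pool of 5 rats, or of 3 rats for the healthy control. ENMO rats (experimental neuromyelitis optica) had received T cells specific for myelin basic protein on day 0 and human NMO-IgG, which binds the astrocyte water channel aquaporin 4, on day 4. EAEcoI and EAEcoP rats (experimental autoimmune encephalomyelitis) had received the same kind of T cells, followed on day 4 by normal human IgG (control IgG) or by PBS. The rats of the NMO-IgG only and control IgG only groups had received the antibody without T cells, and the healthy controls were untreated. All injected rats were killed 24 hours after antibody or PBS. The transferred T cells and both antibodies thus came from outside the animal, and no group was sampled at another time. The ENMO, EAEcoP and control IgG only arrays lay on slide 1. The EAEcoI, NMO-IgG only and healthy control arrays lay on slide 2.

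Between 35.4% and 60.2% of the spots of an array were well above background, with the lowest share on the control IgG only array and the highest on the EAEcoP array. Every array with T cells had a higher share (44.45% or more) than every array without (41.68% or less). Signals are given as normalized signal intensity (NSI), which is the background-corrected signal after quantile normalization of the 6 arrays. The dimmest probe well above background was used as the detection floor. Its NSI was 5.53 (EAEcoP) to 8.19 (ENMO) with T cells and 10.5 (healthy control) to 11.6 (control IgG only) without. A dim transcript was thus easier to detect on arrays with T cells, and detection on that side alone is not by itself a difference in level. Since each group had 1 array, no spread between animals can be given. Probes printed in 10 spots gave a pooled SD of 0.49 (log2) between spots, and a difference between 2 arrays was called when it passed 2 SD of such a difference, 1.40 on the log2 scale or 2.63-fold. This SD comes from spots on the same array, so it leaves out variation between arrays, amplifications and pools of rats. Markers of the labelled tissue were looked up. Of those on the array, 8 of 8 oligodendrocyte, 6 of 7 neuronal and 6 of 8 astrocyte genes had a probe well above background on 1 or more arrays. Slc1a3, S100b and Nefm had none, and Aqp4 passed on 1 array alone. Only 33.0% of all probes passed on no array, and 5 of 5 Schwann cell, 3 of 3 erythroid, 7 of 9 neutrophil and 2 of 4 skeletal muscle genes passed too. These counts therefore do not identify the tissue.

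The probes set the limits of what was measured, so the ones on which the results turn are shown first. Gbp2 was read by a 60-base probe to the transcript NM_133624, placed by the scanner files at chr2:240541001-240541060 on the + strand (the files do not name the genome build). The description of another probe, to the assembled transcript TC593044, names Gbp2 as a partial match. That probe lies at chr2:240533689-240533748, 7312 bases before the first and in the same orientation. The Gbp2 probe has 2 forward reading frames without a stop codon and the probes of Gbp4, Irgm and Ifi47 have 1 each, whereas the TC593044 probe has 0, so it does not lie within an open frame. The probes are given in lower case, from 5′ to 3′, and of the TC593044 probe the first 30 bases are given.
Gbp2 probe: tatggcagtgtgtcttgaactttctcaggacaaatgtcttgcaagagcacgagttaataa
TC593044 probe: agggggaaataactagaacctaattcaacc
Gbp4 probe: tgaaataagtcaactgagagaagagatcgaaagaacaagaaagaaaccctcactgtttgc
Irgm probe: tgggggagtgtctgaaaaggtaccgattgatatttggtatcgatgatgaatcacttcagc
Ifi47 probe: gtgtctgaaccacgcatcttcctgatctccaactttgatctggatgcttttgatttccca

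The promoters of the members were searched for the elements through which interferons act. RefSeq promoter sequences of the assembly GRCr8 were matched by symbol for 7 of the 8 genes (Mx2 was not matched). The 250 bases before the transcript start were searched on both strands for the ISRE core, which is GAAA, any 2 bases and GAAA again (TTTC, any 2 bases and TTTC on the other strand), and for the GAS element TTCNNNGAA, which reads the same on both. The ISRE core was present in 5 of 7 members (Gbp2, Gbp4, Gbp5, Igtp and Irgm), and in 3.41% of all 33469 promoters of the same length. GAS was present in 3 of 7 (Igtp, Irgm and Ifi47), and in 7.67% of all promoters. In Igtp and Irgm both elements lay side by side without overlap, and both were found together in 0.43% of all promoters. The 120 bases before the start are given below for the genes with a measured probe, with matches to either element in capitals.
Gbp2, chr2:234005607-234005726, + strand: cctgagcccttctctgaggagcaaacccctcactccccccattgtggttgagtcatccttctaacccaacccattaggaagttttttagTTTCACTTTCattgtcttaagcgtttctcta
Gbp4, chr2:233978366-233978485, + strand: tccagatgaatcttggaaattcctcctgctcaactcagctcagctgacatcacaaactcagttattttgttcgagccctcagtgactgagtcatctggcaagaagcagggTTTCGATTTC
Irgm, chr10:33742579-33742698, − strand: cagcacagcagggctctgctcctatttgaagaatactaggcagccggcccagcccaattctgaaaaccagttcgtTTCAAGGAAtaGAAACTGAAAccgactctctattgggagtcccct
Ifi47, chr10:33798624-33798743, + strand: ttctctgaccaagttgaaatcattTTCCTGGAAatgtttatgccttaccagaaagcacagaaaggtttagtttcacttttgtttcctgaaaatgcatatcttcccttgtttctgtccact
The ISRE core of Gbp2 began 31 bases before the start, that of Irgm 34 bases and that of Gbp4 10 bases before it. Ifi47 had no ISRE core and 2 GAS matches, and in Mx1 neither element matched. These matches describe the sequence and say nothing of which factor was bound in the spinal cords.

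Gbp2 was high on every array with T cells and low on every array without them. Its NSI was 4470 on the ENMO array, 963 on the EAEcoI array and 2254 on the EAEcoP array. Without T cells it was 40.6 in NMO-IgG only, 53.4 in the healthy control and 19.7 in control IgG only, where the spot was not well above background. The 2 groups of 3 arrays did not overlap, and the lowest array with T cells was far above the highest without. The mean log2 NSI was 11.06 with T cells (SD 1.11, n = 3 arrays) and 5.13 without (SD 0.74, n = 3), a difference of 5.93 (SE 0.69), or 61.1-fold.

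**Figure D1:**
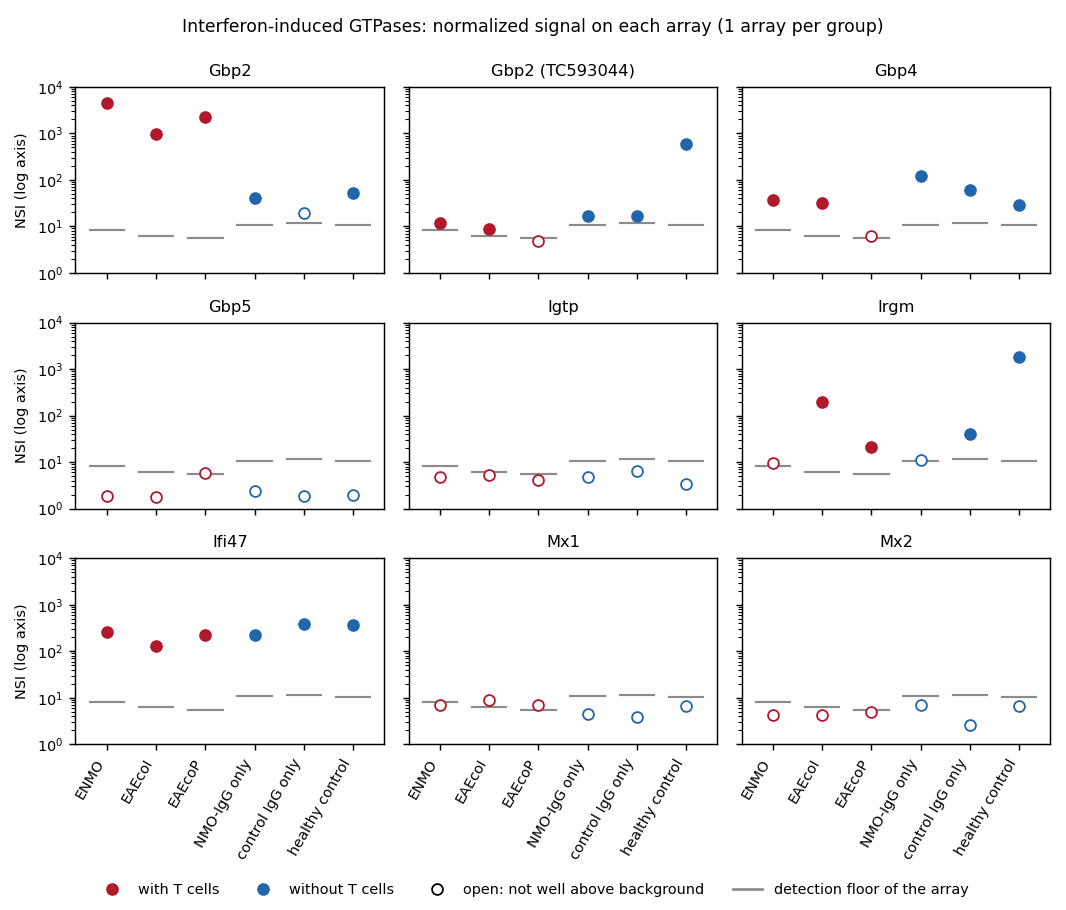
NSI (log axis) of the 9 probes on the 6 arrays, 1 point per array, in red with T cells and in blue without. Open points were not well above background and grey lines mark the detection floor of each array. Gbp2 lies between 963 and 4470 with T cells and between 19.7 and 53.4 without, and the TC593044 and Irgm probes have their highest points on the healthy control array.

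Among all 27468 probes fitted with limma, Gbp2 had the smallest p-value and the third largest difference, but its Benjamini-Hochberg adjusted p was 0.114. No probe passed the threshold of 0.05 in either direction (0.0% higher and 0.0% lower with T cells), with 3149 probes at an unadjusted p under 0.05. The call on Gbp2 depended on which arrays entered the fit. Its limma adjusted p was 0.0361 without the ENMO array (log2 difference 5.40), 0.0345 without the EAEcoI array (6.51) and 0.0435 without normalization between arrays, where the median of all probes moved by 0.73. The normexp background correction was run with an offset of 50 added to every signal, which pulls differences between dim signals toward 0. With it the Gbp2 difference shrank to 3.82 (limma adjusted p = 0.576). An exact two-sided permutation test over the arrays gave p = 0.1, the smallest that 3 against 3 arrays allow. Within slide 1 the difference was 7.34 and within slide 2 it was 4.37, with the sides unequal in number on each slide.

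The step with T cells was present with NMO-IgG, with control IgG and without antibody, where EAEcoP had received PBS and the healthy control nothing. The 2 arrays of each pair lay on different slides, so within a pair T cells and slide cannot be told apart. Gbp2 was 110-fold higher in ENMO than in NMO-IgG only, at least 49.0-fold higher in EAEcoI than in control IgG only, and 42.2-fold higher in EAEcoP than in the healthy control. The middle value is a bound. Where 1 of the 2 spots was not well above background, the fold was taken against the higher of that spot's own NSI and the detection floor of its array. All 3 passed the threshold for single arrays. Of all probes measured in these pairs, 6.48%, 9.59% and 17.6% were called higher with T cells. Whether the size of the step differed between the antibodies was not tested, since each value rests on 2 arrays.

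Some markers of macrophages and of T cells lay higher with T cells, as Gbp2 did, but none of their probes passed limma's threshold. Of 13 measured probes of microglia and macrophage genes, 6 were higher on every array with T cells and 0 were lower, where 11.3% of all probes were higher and 6.79% lower. Among these 6, the probes of Aif1, Itgam, Cd14, Csf1r and Lyz2 were well above background on arrays with T cells alone. They were thus counted as measured only through the side where they were high. Lyz2, the lysozyme of macrophages, was not well above background on any array without T cells, and with T cells it was at least 18.2-fold higher (limma adjusted p = 0.15). Tyrobp, a signalling adaptor of myeloid receptors, had 2 probes. They differed by 1.90 (log2, SE 0.55, limma adjusted p = 0.255) and by 1.73 (limma adjusted p = 0.399), and for the second, brighter probe the groups overlapped. Cx3cr1, the fractalkine receptor of microglia, lay lower with T cells, at -1.11 (limma adjusted p = 0.527), and 4 of the 13 differences were below 0. The summed NSI of the list ran from 4420 to 15785 with T cells and from 2370 to 4002 without. Without Tyrobp, which gave most of these sums, it ran from 1051 to 1631 and from 945 to 1400, so that the groups overlapped. Fcgr1 and Mrc1 were not well above background on any array. For T cell genes, 2 of 7 probes were higher on every array with T cells, 0 were lower and 3 of the 7 differences were below 0. Of the 2, that of Cd8a was well above background on 1 array with T cells alone. The summed NSI of the T cell genes was 1543 to 3094 against 1108 to 1408, while Cd2 and Cd3e were not well above background. Much of these sums came from Cd3d (872 to 2348 against 594 to 918), whose groups overlapped (limma adjusted p = 0.591). The part of these cells in the Gbp2 difference was not tested, and in whole tissue more cells of a type and more RNA per cell cannot be told apart.

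The other probe assigned to Gbp2 went the opposite way. The TC593044 probe showed an NSI of 11.8 on the ENMO array, 8.76 on the EAEcoI array and 4.94 on the EAEcoP array, where it was not well above background. Without T cells it was 16.7 with NMO-IgG alone, 16.6 with control IgG alone and 578 in the healthy control. The groups did not overlap, with all arrays with T cells lower, but the other arrays without T cells were close to them and the healthy control stood alone. The log2 difference was -2.76 (SE 1.22, limma adjusted p = 0.432), and -1.06 without the healthy control array (limma adjusted p = 0.721). With NMO-IgG the 2 arrays differed by -0.50 and with control IgG by -0.92, both within the threshold, and without normalization the latter turned to 0.69. EAEcoP was at least 105-fold lower than the healthy control, where 20.9% of all probes were called lower. The 2 probes that the files tie to Gbp2 therefore did not report the same signal, and the values of Gbp2 given above rest on the NM_133624 probe alone.

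Gbp4, a relative encoded next to Gbp2 on the same chromosome, did not follow it. Its NSI was 36.7 on the ENMO array, 31.8 on the EAEcoI array and 6.30 on the EAEcoP array, where the spot was not well above background. Without T cells it was 123 with NMO-IgG alone, 61.9 with control IgG alone and 29.0 in the healthy control. The groups overlapped, since the healthy control lay below the ENMO and EAEcoI arrays. The log2 difference was -1.63 (SE 0.81, limma adjusted p = 0.468), and -0.82 without the EAEcoP array (limma adjusted p = 0.839). At NMO-IgG Gbp4 was 3.34-fold lower with T cells and without antibody at least 4.60-fold lower, both past the threshold, where 6.85% and 20.9% of all probes were called lower. With normexp neither passed (-0.86 and -0.36, log2), and the latter also fell within the threshold without normalization between arrays (-1.32). At control IgG it was 1.95-fold lower, within the threshold, and without normalization between arrays this difference turned to 0.44 (log2).

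Irgm, a regulator of autophagy among the immunity-related GTPases, did not follow T cells. It was well above background on the 4 arrays without NMO-IgG and on neither array with it. The share of all probes detected in this way was not counted. The NSI of Irgm was 9.69 in ENMO and 11.2 in NMO-IgG only, where the floors were 8.19 and 10.6. It was 199 in EAEcoI, 21.4 in EAEcoP, 39.3 in control IgG only and 1783 in the healthy control. The groups overlapped, and the highest array was 8.96 times the next. The log2 difference with T cells was -1.42 (SE 1.71, limma adjusted p = 0.753), and it turned to 0.72 without the healthy control array. Within slide 2 it was 0.49 and within slide 1 it was -1.45. In single pairs Irgm was 5.07-fold higher in EAEcoI than in control IgG only (background 9.59%) and 83.4-fold lower in EAEcoP than in the healthy control (background 20.9%). With normexp the first fell within the threshold (0.72, log2). On neither array with NMO-IgG was the spot well above background, so no fold is given there.

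Irgm and the TC593044 probe shared their highest array. These 2 of the 5 measured probes were higher on the healthy control array than on each of the other 5 by more than the threshold, which held for 1.36% of all probes. Neither spot carried an outlier mark on that array, and the neighbouring spots in a window of 5 by 5 deviated there from their own mean over the 6 median-centred arrays by a median of 0.30 around Irgm and 0.06 around TC593044 (log2). The healthy control pool held 3 rats and the other pools 5. Whether a spot or an animal gave these values was not tested.

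Ifi47, also called IRG-47 in mice, was the single member well above background on all 6 arrays, as were 28.4% of all probes. Its NSI was 253 on the ENMO array, 131 on the EAEcoI array and 219 on the EAEcoP array, and 225 with NMO-IgG alone, 380 with control IgG alone and 367 in the healthy control. The groups overlapped, and the highest array was 2.89 times the lowest. The log2 difference was -0.70 (SE 0.54, limma adjusted p = 0.62). Of the 9 comparisons between single arrays, 1 passed the threshold for Ifi47: it was 2.89-fold lower in EAEcoI than in control IgG only, where 10.2% of all probes were called lower. This call was lost without normalization between arrays (-0.40, log2) and with normexp (-1.18).

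**Figure D2:**
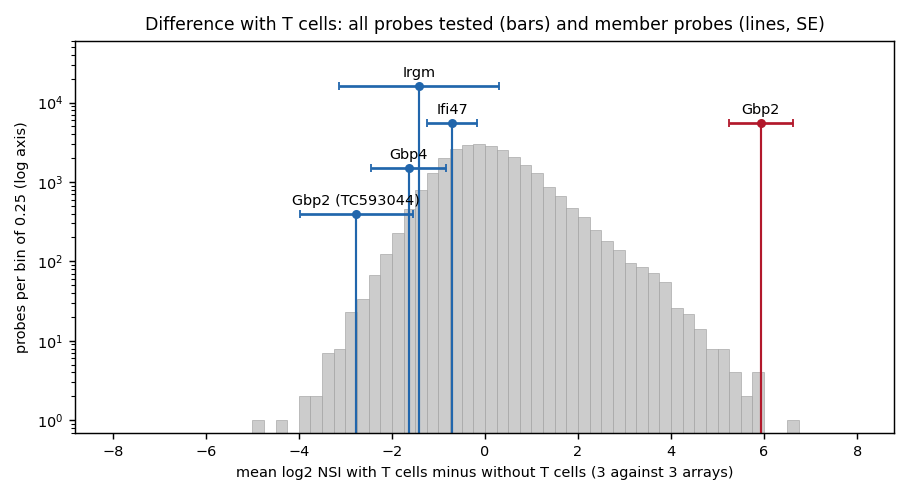
Mean log2 NSI with T cells minus without, for all probes tested (grey bars, number of probes on a log axis) and for the 5 measured member probes (lines at their difference, points with SE, heights of the points arbitrary). Gbp2 lies at 5.93 at the right edge of the distribution, and the other 4 lie between -2.76 and -0.70.

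Of the 5 measured probes, 1 was higher and 1 was lower with T cells on every array, against 11.3% and 6.79% of all probes. The remaining 4 genes gave no usable level. Gbp5, Igtp, Mx1 and Mx2 were not well above background on any array, with an NSI between 1.77 and 8.87 over all their 24 values, and 33.0% of all 41012 probes were like them in this. The same held for 5 of 5 further probes described as similar to guanylate-binding proteins, to interferon-inducible GTPases or to the very large inducible GTPase. The floor of 5.53 to 11.6 does not bound what these spots could miss. Mx1 in EAEcoI, for example, was not well above background at 8.87, over the floor of 6.23 there. No fold is given for these genes. Gbp5 and Igtp carry the ISRE core before their start and Mx1 does not, so the dim members included genes with and without that motif.

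In the presence of T cells, NMO-IgG was compared with control IgG and with PBS. For Gbp2, ENMO was 4.64-fold higher than EAEcoI, which lay on the other slide. This passed the threshold, where 8.77% of all probes were called higher. Against EAEcoP, which lay on the same slide, it was 1.98-fold higher, within the threshold. The EAE arrays differed from each other by 2.34-fold, also within it. Against the mean log2 NSI of both EAE arrays, ENMO was 3.03-fold higher.

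The other measured members gave no common direction. Irgm was at least 20.5-fold lower in ENMO than in EAEcoI (background 8.0%) and Ifi47 was 1.93-fold higher, within the threshold. Gbp4 differed little between ENMO and EAEcoI (1.15-fold), while against EAEcoP it was at least 5.82-fold higher in ENMO (background 17.2%) and at least 5.05-fold higher in EAEcoI (background 15.2%). EAEcoI also exceeded EAEcoP in Irgm, by 9.31-fold. With normexp none of these 4 calls passed, at -0.97 and 0.90 (log2) for Irgm and at 0.35 and 0.43 for Gbp4. In all, 4 of 5 probes were higher in ENMO than on both EAE arrays, regardless of size, which held for 28.7% of all probes, and 1 of these 4, Gbp2, passed the threshold against EAEcoI. Over 5 probes on 1 array per group no test was made.

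Without T cells Gbp2 was low with either antibody. NMO-IgG only was 1.32-fold below the healthy control and at least 2.07-fold above control IgG only, both within the threshold, and control IgG only was at least 2.72-fold below the healthy control (background 7.19%). Gbp4 was 4.23-fold higher in NMO-IgG only than in the healthy control, where 6.61% of all probes were called higher, and 2.14-fold higher in control IgG only, within the threshold. Gbp4 in the 2 antibody groups differed by 1.98-fold, within the threshold. Irgm was at least 159-fold and 45.4-fold lower with NMO-IgG and with control IgG than in the healthy control, and the TC593044 probe 34.6-fold and 34.9-fold lower (background 5.58% and 7.19%). Both pairs of values rest on the single healthy control array described above. Control IgG only also exceeded NMO-IgG only in Irgm, by at least 3.50-fold (background 7.1%). With normexp this call was lost (-0.31, log2), as were those of Gbp2 in control IgG only (-0.11) and of Gbp4 in NMO-IgG only (0.85) against the healthy control. For Ifi47 the 3 arrays lay within 1.69-fold of each other.

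**Figure D3:**
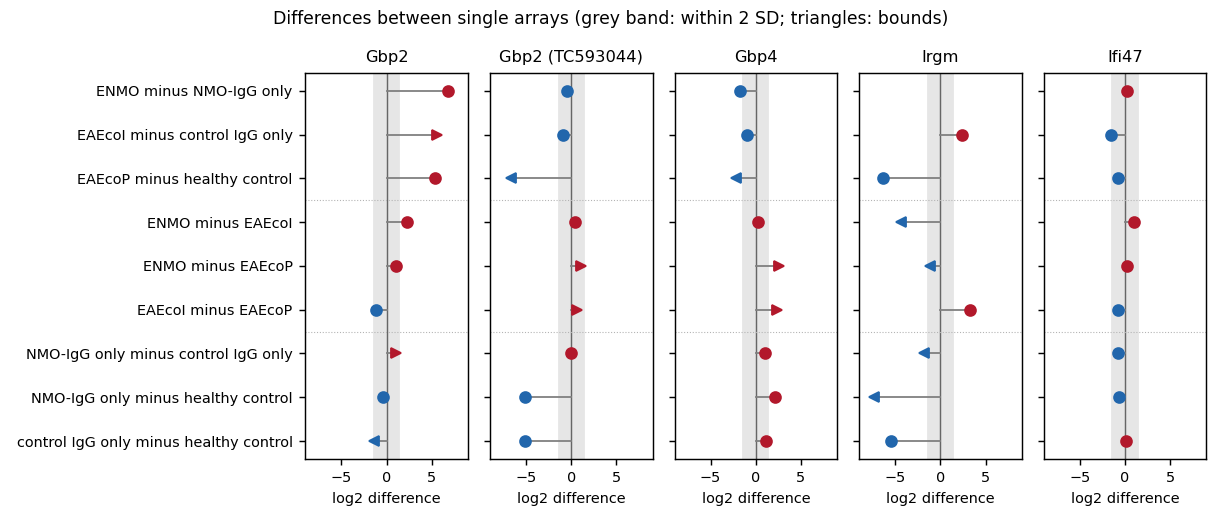
Log2 differences between single arrays for the 5 measured probes, with the first named array minus the second. Circles are measured differences, triangles are bounds where 1 spot was not well above background, and the grey band marks differences within the threshold of 1.40. Gbp2 lies outside the band to the right in all 3 comparisons of T cells with no T cells, and Ifi47 lies outside it in 1 of 9.

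Genes that act upstream of the GTPases, or respond beside them, were taken from 3 lists chosen with earlier results of these data known. Of 59 measured probes, 18 were higher on every array with T cells and 1 was lower, against 11.3% and 6.79% of all probes, and none of them passed limma's threshold. Among the 18, the probes of Ifng, Ifnar1, Jak2, Irf7, Usp18, Isg15, Samd9l and Cxcl11 were well above background on arrays with T cells alone. They were thus counted as measured only through the side where they were high. Among ligands, receptors and signalling genes, 6 of 17 probes were higher and 0 lower, with a median log2 difference of 0.69, where that of all probes was 0.01. Irf7, the transcription factor that amplifies type I interferon, was not well above background on any array without T cells and at least 1.09-fold higher with them (limma adjusted p = 0.296). Usp18, a brake on the type I receptor, had 2 probes. The first was well above background on 1 array alone, where its NSI was 23.5, so no fold is given (limma adjusted p = 0.332). The second was well above background on all 6 arrays, with overlapping groups and a difference of 0.11 (limma adjusted p = 0.952). Ifngr1, Irf2 and Irf9 were not well above background on any array.

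Interferon-stimulated genes without a GTPase domain had 6 of 21 probes higher, 0 lower and a median of 0.25. Parp14, an ADP-ribosyltransferase, was well above background on 2 arrays, with an NSI of 118 in EAEcoP and 49.3 in EAEcoI, while it was 1.79 in ENMO. The arrays without T cells had 1.88 to 2.24, so the groups overlapped. Averaged over the 3 arrays of each side, Parp14 was at least 2.0-fold higher with T cells (limma adjusted p = 0.355). Zbp1, a sensor of left-handed nucleic acids, differed by 2.03 (SE 0.68, limma adjusted p = 0.303). Ifit2, Ifi44, Ifih1 and Parp9 were not well above background on any array.

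Genes known to be strongly induced by interferon gamma had 6 of 21 probes higher, 1 lower and a median of 0.83. Psmb9, a subunit of the immunoproteasome, differed most in this list, with 1615 for ENMO, 595 for EAEcoI and 401 for EAEcoP as NSI against 38.4 to 51.6 without T cells, a log2 difference of 4.08 (SE 0.62, limma adjusted p = 0.15). Psmb10, another subunit of it, differed by 2.77 (SE 1.34, limma adjusted p = 0.463), with EAEcoI at 32.3, as low as the healthy control at 31.9, and a difference of -0.37 within slide 2. GTPases of the dynamin superfamily that are not known as interferon-induced had 3 of 11 probes higher, 2 lower and a median of 0.10. The 3 higher ones (Atl1, Dnm1 and Mfn1) were well above background on arrays with T cells alone. Mfn1, which fuses mitochondria, was measured by 2 probes that went opposite ways. The first was not well above background on any array without T cells and at least 4.12-fold higher with them (limma adjusted p = 0.336), and the second differed by -1.23 (log2, limma adjusted p = 0.447). Of the other GBP, IRG and Mx genes listed, Irgc and Irgq were measured, at -0.14 and 0.04.

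**Figure D4:**
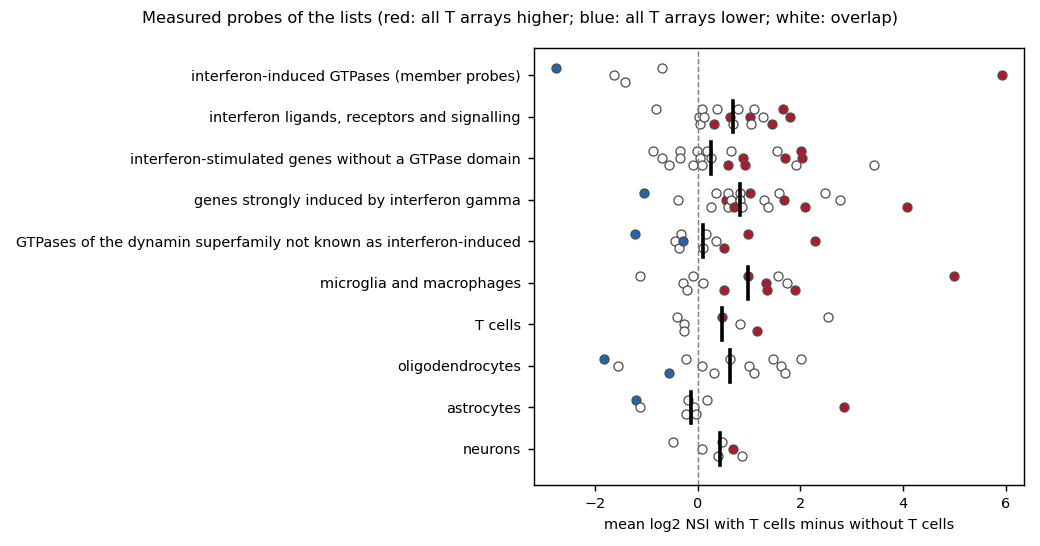
Mean log2 NSI with T cells minus without, 1 point per measured probe, for the members and for lists of genes. Red points were higher and blue points lower on every array with T cells, white points overlapped, black bars are list medians and the dashed line is the median of all probes. The medians of the 3 interferon lists are 0.69, 0.25 and 0.83, and Gbp2 lies to the right of every point shown.

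The remaining marker lists were counted in the same way. B cell genes had 0 higher and 0 lower of 3 probes, neutrophil genes 1 and 1 of 8, endothelial genes 0 and 2 of 11, astrocyte genes 1 and 1 of 8, oligodendrocyte genes 0 and 2 of 13 and neuronal genes 1 and 0 of 6. Schwann cell genes had 0 and 1 of 5, skeletal muscle genes 1 and 0 of 2, erythroid genes 0 and 0 of 3 and reference genes 5 and 0 of 12. The reference genes thus also lay above the share of all probes, with a median of 0.43.

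The pattern over the 6 arrays averaged over Gbp2, Gbp4, Irgm and Ifi47 was set against 9880 named probes well above background on at least 3 arrays. The 5 genes most like it were Kctd2 (Pearson r = 0.98 over 6 arrays), Atg4c (0.97), Rtf1 (0.97), Virma (0.96) and Nr1d1 (0.96), with an NSI between 1.72 and 73.1. None of them belongs to the interferon lists above. Since the members differ among themselves, this average is the pattern of no single one, and the correlations are a description of arrays that were normalized together.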

How the data were processed

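The authors deposited, for each array, the table of spot intensities from Agilent Feature Extraction 10.1.1.1, with background-corrected signals and marks for outliers and for spots well above background, and a table with 1 intensity per target. The 2 agree within 0.1% for the 32374 targets with 1 spot, and neither is normalized between arrays.

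The 43379 spots that are no controls were used. Outlier spots were removed, spots of a probe averaged on the log2 scale and arrays quantile-normalized. T cells against no T cells (3 against 3 arrays) was fitted with limma 3.58.1 in R 4.3.3 on the 27468 probes detected (well above background) on any array, at an adjusted p threshold of 0.05 (Benjamini-Hochberg). The fit was also run on simulated data, with the outcome not reported here. P-values measure the spread between arrays that differ in antibody. Where a probe was not well above background on 1 array, or on all arrays of a side, a bound was computed against the higher of its own NSI and the detection floor of the array. Counts of arrays that do not overlap use the 27274 probes with a value on every array. In the lists and among all probes alike, they include probes well above background on arrays of 1 side alone. Precision is limited by having 1 array per group.

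The members, the gene lists and the tests were chosen with earlier results of these data known. Named were every member, at most the 2 genes of a list with the largest difference, genes not measured, and the 5 genes most like the mean of the members. Symbols were updated through accessions of the RefSeq table of GRCr8. Alternatives were other normalizations and background corrections, filters, the slide or the antibody in the fit, other averages, the deposited values per target, leaving out arrays, and, chosen after seeing the data, removal of each array's local trend.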

Additional observations from a re-analysis of the deposited data

Results flagged for a closer look

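For Irgm the effect of T cells had opposite signs at 2 antibodies. With control IgG the log2 difference was 2.34 (EAEcoI minus control IgG only), and without antibody it was -6.38 (EAEcoP minus healthy control), both past the threshold for single arrays. With normexp the first was 0.72 and no longer past it. The difference between them was not tested, since each rests on 2 arrays. With the healthy control array left out, the second value does not exist.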

How the results depend on the processing

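The number of probes called with T cells was 0, and ranged from 0 to 213 when 1 array was left out (205 higher and 8 lower without ENMO, 3 without EAEcoI). Without normalization it was 34. In the comparisons of single arrays, 9 of 14 values were called with T cells at each antibody, 5 of 15 for antibody with T cells and 7 of 15 for antibody without T cells. With normexp these were 5, 2 and 4, and with a threshold of 1 SD the last 2 were 11 and 12. Shares of all probes called are given for directions in which a member was called. For T cells at each antibody they were 6.48% to 17.6% higher and 6.85% to 20.9% lower. For antibody with T cells they were 8.77% to 17.2% higher and 8.0% lower. For antibody without T cells they were 6.61% higher and 5.58% to 7.19% lower. Interferon list probes higher with T cells were 18, against 30 without normalization and 10 with normexp. Without normalization the median difference of all probes was 0.73, and the share of all probes higher was not counted under either alternative. The cause was not tested.

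Of 570 values of single probes under an alternative, 515 kept direction and, where a threshold applied, side, 27 newly passed, 13 no longer passed and 15 changed sign. Values within a slide, ratios of arithmetic means and ENMO against the mean of both EAE arrays were compared by sign alone. Other filters, tests or thresholds left the estimate itself unchanged. In the main limma fit no probe passed, so no such call could be lost there. Irgm ranged from -2.94 to 0.72 when 1 array was left out, the latter without the healthy control, and turned to 0.49 within slide 2, and Psmb10 to -0.37 within slide 2. Without normalization the sign turned for TC593044 and Gbp4 with T cells at control IgG (0.69 and 0.44) and in ENMO against EAEcoI (-0.34 and -0.50), and for Ifi47 in ENMO against EAEcoP (-0.14) and in control IgG only against the healthy control (-0.75). With normexp it turned for TC593044 at NMO-IgG with T cells (0.027) and without T cells against control IgG (-0.057), for Ifi47 at NMO-IgG (-0.0001), in ENMO against EAEcoP (-0.075) and in control IgG only against the healthy control (-0.026), and for Gbp4 in ENMO against EAEcoI (-0.082). The 13 that no longer passed were 5 of Gbp4 (-0.86 to 0.85), 4 of Irgm (-0.97 to 0.90), 1 of Ifi47 (-1.18) and 1 of Gbp2 (-0.11) with normexp, and Ifi47 at control IgG (-0.40) and Gbp4 without antibody (-1.32) without normalization. No pairing by replicate was possible because each group had 1 array and no second replicate number. A fit with the 3 antibody conditions as a second factor matched each array with T cells to 1 without. In that fit 0 probes were called (2866 at an unadjusted p under 0.05) and Gbp2 was at 5.93 (limma adjusted p = 0.0932). Signals near background limit Gbp4, Irgm and TC593044 most. There the normexp offset shrinks differences, so an unstable call cannot be told apart from that shrinkage where a call was lost with normexp.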

Other observations

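Chosen after its values were seen, the pattern of Gbp2 alone was also set against the 9880 named probes well above background on at least 3 arrays. The 5 most alike were Stk11ip (Pearson r = 0.99 over 6 arrays), RT1-A2 (0.98), a class I molecule of the major histocompatibility complex, Ehmt1 (0.98), a histone methyltransferase, Ctsz (0.97), a lysosomal protease, and Cd300lf (0.97), an inhibitory receptor of myeloid cells. Their log2 differences with T cells were far smaller than that of Gbp2, between 0.65 for Ctsz and 1.08 for Ehmt1. The NSI of RT1-A2 was 306 on the ENMO array, 241 on the EAEcoI array and 304 on the EAEcoP array, against 164 to 167 without T cells. No p-value is attached to these correlations.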
